A study of Homo sapiens with 6 samples.

Results

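Asparagine, proline, glutamate and aspartate are made in human cells by a small set of enzymes that hand nitrogen and carbon between the cytosol and the mitochondrion, and 8 of the genes behind them are described here: PCK2, ASNS, GPT2, PYCR1, ALDH18A1, GLUL, GOT1 and GOT2. They were taken by gene symbol from a table of 61806 genes, and each symbol matched exactly 1 row. They were chosen by their measured differences in expression between edited and unedited cells, so their own values in that contrast are a description and carry no test. The rs16851030-mutant cells were HEK293 cells, a human embryonic kidney line, that had received this variant of ADORA1, the adenosine A1 receptor gene, by CRISPR homology-directed repair. They were set against wild-type HEK293 cells, and each genotype had 3 libraries of poly(A) RNA that the submitters call biological replicates. The labels give the same medium for every sample, DMEM with serum and antibiotics. The labels do not say whether the edited libraries stem from a single clone, so the spread between libraries may not hold the spread between clones.

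As background, PCK2 turns oxaloacetate into phosphoenolpyruvate inside the mitochondrion, ASNS makes asparagine from aspartate with the amide nitrogen of glutamine, and GLUL makes glutamine from glutamate and ammonia. ALDH18A1 reduces glutamate to the precursor that PYCR1 then turns into proline in the mitochondrion. GOT1 (cytosolic) and GOT2 (mitochondrial) are the aspartate aminotransferases, which also serve the malate-aspartate shuttle, and GPT2 is the mitochondrial alanine aminotransferase. Several of these genes, ASNS and PCK2 among them, are known targets of ATF4, the transcription factor of the amino acid response. ATF4 is translated when the kinase EIF2AK4 (GCN2) senses uncharged tRNA, and it binds C/EBP-ATF response elements.

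RefSeq promoter windows, which run from 250 bases before a gene's start to 50 bases after it (GRCh38.p14), were held for 6 of the 8 genes (8 windows). GPT2 and PYCR1 had none. The windows were searched on both strands for TGATGNAA, the core of C/EBP-ATF response elements, for GTTACA, the second element of the ASNS promoter, and for the E-box CACGTG. None of these motifs overlapped another in the windows. The matches are shown 5′ to 3′ on the strand of the gene, with the matched letters in capitals, because they were the only matches found in the members' windows.
ASNS, chr7:97872449-97872478, minus strand: caTGATGAAActtcccgcacgcGTTACAgg
GOT1, chr10:99430806-99430831, minus strand: ttgcattggTTGCATCAttctcggca
ALDH18A1, chr10:95656832-95656857, minus strand: gctggcccgcCACGTGgagcgctggc

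ASNS had 2 windows, and the matches lay in only 1 of them, where the response element began 68 bases and the second element 48 bases before that window's RefSeq start. That start lies inside the span the deposited table gives for ASNS, which reaches 97872542, so the distances do not hold from the end of that span. The GOT1 match was the same core read on the other strand, between 198 and 191 bases before the start, and the ALDH18A1 E-box began 136 bases before it. The windows of PCK2, GLUL and GOT2 held none of the 3 motifs. Of all 35116 RefSeq windows, 3.62% held TGATGNAA, 6.66% held GTTACA and 7.26% held CACGTG. A match here is a string of letters and not evidence of binding.

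The libraries held 16013460 to 20349609 counts assigned to genes. In a fit over the 12550 genes that averaged 1 FPKM or more (counts scaled by exonic length and library total), 58.0% differed between genotypes at an adjusted p below 0.05 by the quasi-likelihood test of edgeR. The mutant was higher for 29.4% of the genes and lower for 28.7%. The groups did not overlap in FPKM for 62.9% of these genes, 34.8% being higher and 28.1% lower in the mutant. Such a background leaves little to be read from a count of members that differ. The HEK293 marker VIM was at 86.13 to 88.28 FPKM in mutant and 143.25 to 165.66 FPKM in wild-type libraries, the neuronal gene NEFM, which this line is known to express, at 19.53 to 21.49 FPKM in mutant and 23.37 to 28.44 FPKM in wild-type libraries. The renal factor PAX2 was low, at 0.17 to 0.27 FPKM in mutant and 0.04 to 0.16 FPKM in wild-type libraries. The 7 HEK293 markers, 5 of them at a mean of 1 FPKM or more, summed to 115.9 to 120.38 FPKM in mutant and 178.67 to 207.34 FPKM in wild-type libraries, most of it VIM. They did not all differ one way. By mean FPKM, KRT18 (6.51 in mutant, 8.01 in wild type) and INA (1.55 in mutant, 3.37 in wild type) were lower in the mutant, like VIM and NEFM. KRT8 (1.12 in mutant, 0.503 in wild type) and LHX1 (1.20 in mutant, 0.89 in wild type) were higher, like PAX2. Of the markers of hepatocytes, blood and endothelium, none of 9 reached a mean of 1 FPKM. The 3 fibroblast markers summed to 5.78 to 6.26 FPKM in mutant against 3.12 to 3.32 FPKM in wild-type libraries, most of it COL1A1. Among them, COL3A1 was at 1.06 to 1.16 FPKM in mutant and 0.27 to 0.43 FPKM in wild-type libraries, and DCN was at or under 0.01 FPKM. The part of these marker differences in the members' values was not tested. ADORA1 stood at 0.56, 0.65 and 0.51 FPKM in the mutant and 0.59, 0.41 and 0.44 FPKM in the wild type, which does not test whether the edit is present.

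The 8 genes did not all differ in one direction. PCK2, GPT2, PYCR1 and GOT2 were higher in every mutant library than in any wild-type library, and ALDH18A1, GLUL and GOT1 were lower in every mutant library. Those 7 genes passed the expression minimum, and all 7 lay past the adjusted p of 0.05, 4 higher and 3 lower. Since they were chosen by this contrast, nothing is read from these counts beside the 58.0% called, or the 34.8% higher and 28.1% lower without overlap, among all tested genes. ASNS, with a mean of 0.875 FPKM, did not reach the minimum. Differences ran from a 5.98-fold higher level (PCK2) to a level 0.726 times that of the wild type (GLUL). In such bulk libraries, fewer cells with a transcript and less of it per cell cannot be told apart.

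**Figure D1:**
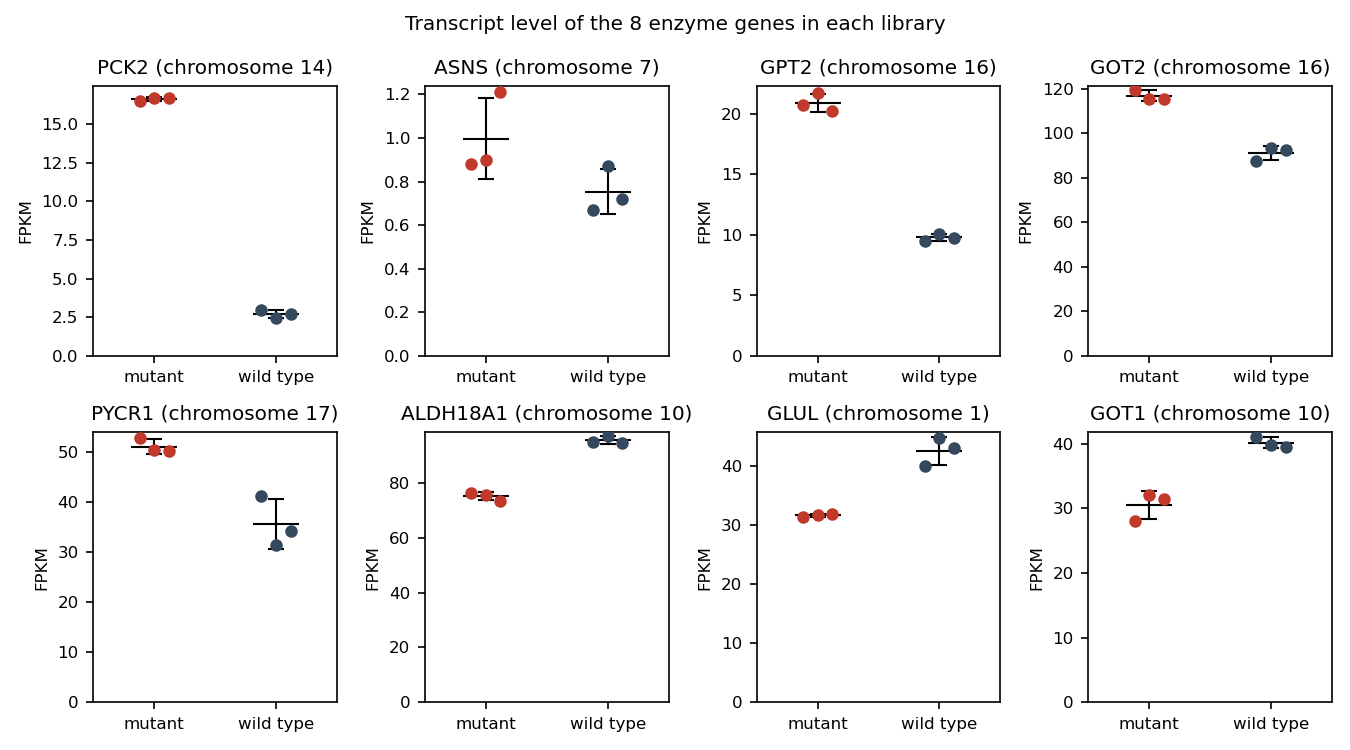
FPKM of each of the 8 genes in the 3 mutant libraries (red, left) and the 3 wild-type libraries (dark blue, right), with the mean (bar) and SD (whiskers); every axis starts at 0. PCK2 stands at 16.45 to 16.70 FPKM in the mutant against 2.43 to 2.99 FPKM in the wild type, and ALDH18A1, GLUL and GOT1 lie lower in the mutant.

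PCK2 (ENSG00000100889, GRCh38 chromosome 14, 24094053 to 24110598, plus strand) had 16.45, 16.70 and 16.65 FPKM in mutant libraries, against 2.99, 2.43 and 2.71 FPKM in wild-type libraries. The mutant values were nearly identical and lay far above all wild-type values. Counts were 1398, 1174 and 1114 in the mutant and 224, 171 and 201 in the wild type. The log2 fold change (mutant minus wild type) was 2.58 (SE 0.08), and 0.120% of tested genes had a larger one. The coefficient of variation was 0.797% in the mutant, under the 2.85% that counting alone would give at this depth, and 10.3% in the wild type, where counting gives 7.09%. PCK1, which encodes the cytosolic form of the same enzyme, was listed at 0.01, 0.00 and 0.01 FPKM in the mutant and 0.00, 0.01 and 0.00 FPKM in the wild type. Nearly all carboxykinase transcript in both groups therefore came from PCK2. NRL, which overlaps PCK2 on the opposite strand, had 11 to 20 counts in mutant and 14 to 24 in wild-type libraries.

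GPT2 (ENSG00000166123, chromosome 16, 46884362 to 46931289, plus strand) had 20.74, 21.69 and 20.23 FPKM in mutant libraries, against 9.51, 10.09 and 9.78 FPKM in wild-type libraries. The groups lay far apart relative to their spread, and the log2 fold change was 1.06 (SE 0.05), which 3.21% of tested genes exceeded. GPT, the gene of the cytosolic alanine aminotransferase, was low: 1.02, 1.36 and 1.02 FPKM in the mutant and 1.11, 1.66 and 0.84 FPKM in the wild type. Its groups overlapped, and its log2 fold change of -0.12 (SE 0.24) did not pass (edgeR adjusted p = 0.686). GPT2 therefore made up 94.9% ± 0.670 of the summed FPKM of the pair in the mutant and 89.2% ± 3.13 in the wild type (SD, n = 3 each).

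ASNS (ENSG00000070669, chromosome 7, 97851677 to 97872542, minus strand) had the fewest counts of the 8. It stood at 0.88, 0.90 and 1.21 FPKM in mutant libraries, against 0.67, 0.87 and 0.72 FPKM in wild-type libraries, from 88, 74 and 95 counts in the mutant and 59, 72 and 63 in the wild type. The lowest mutant value exceeded the highest wild-type value by 0.01 FPKM, and the log2 fold change was 0.32 (SE 0.18) in the fit without an expression minimum. It was 0.17 without mutant replicate 3, the highest library. These few counts stand beside a shared annotation. The table also lists ENSG00000284707, an unnamed gene from 97851688 to 97972985 on the same strand, with 28, 18 and 12 counts in mutant and 16, 20 and 23 counts in wild-type libraries. In GENCODE release 29, exons of ENSG00000284707 cover 1683 of the 1752 coding bases of ASNS (96.1%) and 44.6% of all its exonic bases. How reads that fit both genes were counted is not stated, and the part of this overlap in the ASNS counts was not tested. Its level is therefore not ranked against the other members. For the other 7 genes, no coding base was shared with a gene on the same strand in that release.

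PYCR1 (ENSG00000183010, chromosome 17, 81932384 to 81942412, minus strand) had 52.75, 50.33 and 50.09 FPKM in mutant libraries, against 41.10, 31.39 and 34.28 FPKM in wild-type libraries. Wild-type replicate 1 lay nearest to the mutant, and the log2 fold change of 0.49 (SE 0.07) was 0.60 without it. PYCR1 shares 14.1% of its exonic bases with another gene on its strand and 15.6% with genes on the opposite strand. Those overlapping genes had at most 5 counts in any library, and the part of this overlap in the PYCR1 counts was not tested. PYCR3, the gene of a cytosolic reductase, had 10.16, 10.84 and 9.56 FPKM in the mutant and 10.65, 9.91 and 11.19 FPKM in the wild type, and its log2 fold change of -0.09 (SE 0.07) did not pass (edgeR adjusted p = 0.286).

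ALDH18A1 (ENSG00000059573, chromosome 10, 95605941 to 95656711, minus strand), the step before PYCR1, was lower in the mutant. It had 76.16, 75.52 and 73.49 FPKM in mutant libraries, against 94.87, 97.10 and 94.60 FPKM in wild-type libraries, a log2 fold change of -0.38 (SE 0.04). Both groups were tight, with coefficients of variation of 1.86% in the mutant and 1.44% in the wild type. The ratio of PYCR1 to ALDH18A1 FPKM was 0.680 ± 0.0131 in the mutant and 0.373 ± 0.0557 in the wild type (SD, n = 3 each), so the transcripts of these consecutive steps stood nearer to each other in the mutant.

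GLUL (ENSG00000135821, chromosome 1, 182378098 to 182392206, minus strand) had 31.40, 31.70 and 31.80 FPKM in mutant libraries, against 40.04, 44.75 and 43.01 FPKM in wild-type libraries. The log2 fold change was -0.46 (SE 0.04), the lowest of the 8. The mutant libraries lay close together, with a coefficient of variation of 0.658%, against 5.59% in the wild type. The table gives GLUL an exonic length of 12638 bases, against 9032 in GENCODE release 29, and a longer length lowers its FPKM in both groups alike. LGSN, a distant relative in the glutamine synthetase family, stayed at or under 0.03 FPKM in all libraries.

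GOT1 (ENSG00000120053, chromosome 10, 99396870 to 99430624, minus strand) and GOT2 (ENSG00000125166, chromosome 16, 58707131 to 58734342, minus strand) differed in opposite directions. GOT1 had 28.12, 32.15 and 31.48 FPKM in mutant libraries, against 41.10, 39.89 and 39.44 FPKM in wild-type libraries (log2 fold change -0.43, SE 0.06). GOT2 had 119.66, 115.44 and 115.31 FPKM in mutant libraries, against 87.41, 93.50 and 92.52 FPKM in wild-type libraries (log2 fold change 0.33, SE 0.04). Neither gene's groups overlapped. By mean FPKM, GOT2 was the highest of the 8 in the mutant, and ALDH18A1 was in the wild type. The ratio of GOT2 to GOT1 was 4.26, 3.59 and 3.66 in mutant libraries, against 2.13, 2.34 and 2.35 in wild-type libraries, so the mitochondrial form made up 79.2% ± 1.503 of the summed FPKM in the mutant and 69.4% ± 1.20 in the wild type (SD, n = 3 each). GOT1L1, a related gene, had no counts in any library. In GENCODE release 29 genes on the opposite strand cover 19.3% of the exonic bases of GOT1 and 4.30% of those of GOT2, and whether counting used the strand is not stated. By the deposited coordinates, no listed gene overlaps GOT1. The only listed gene that overlaps GOT2, ENSG00000245768, had 0 to 3 counts in any library. The part of these overlaps in the counts was not tested. The table gives GOT1 an exonic length of 2424 bases, against 3369 in that release, and GOT2 3751 against 3766, so the ratio and the shares in both groups depend on the lengths used. In the mutant, the library with the lowest GOT1 value, replicate 1, also had the highest GOT2 value.

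**Figure D2:**
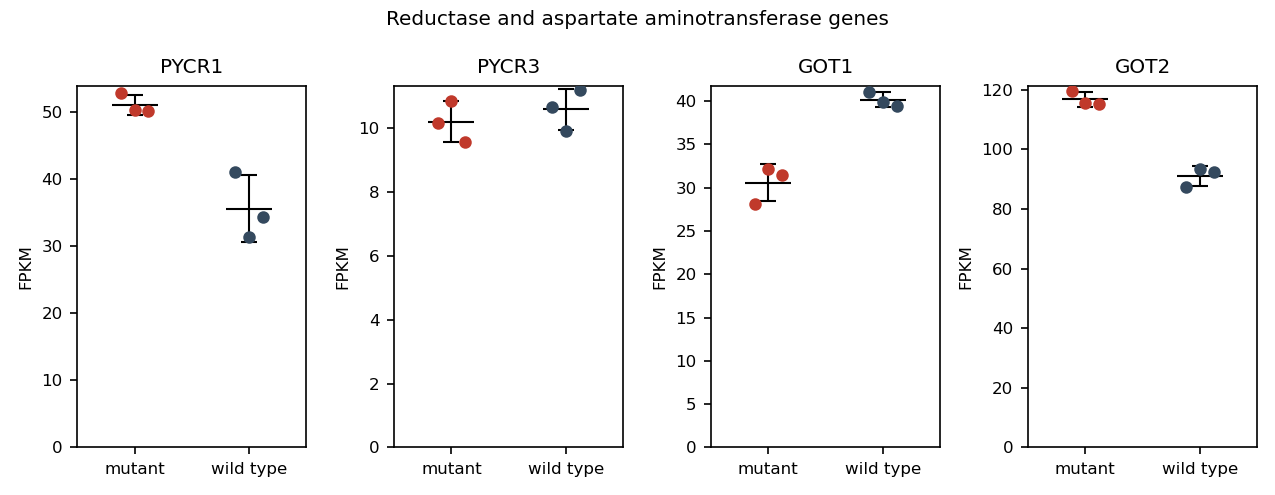
FPKM of PYCR1, PYCR3, GOT1 and GOT2 by library, mutant (red, left) and wild type (dark blue, right), with means and SD. PYCR1 is higher in the mutant while the groups overlap for PYCR3, and GOT1 is lower and GOT2 higher in the mutant.

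The chromosomes on which the members lie differed between genotypes as well, and 4 of the 8 lie on chromosomes 10 and 16, where most called genes moved one way. On chromosome 10, the other 491 tested genes had a median log2 fold change of -0.36, with 44 higher and 319 lower in the mutant. ALDH18A1 lay -0.02 and GOT1 -0.06 from that median, and 21 of the 25 nearest tested genes of each were below 0. On chromosome 16, the other 577 tested genes had a median of 0.29, with 361 higher and 33 lower. GOT2 lay 0.03 from it and -0.04 from the median of its 25 nearest tested genes, 23 of which were above 0. GPT2, on the same chromosome, lay 0.77 above it, and 9.53% of the chromosome's genes had a larger log2 fold change. Whether the dose of these chromosomes differs between the cells was not tested.

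The remaining members lay on chromosomes with medians near 0. PCK2 stood 2.62 above the median of chromosome 14 (-0.04), where 0.232% of the other tested genes had a larger log2 fold change, and its 25 nearest tested genes had a median of -0.03. PYCR1 stood 0.51 above the median of chromosome 17 and 0.64 above that of its 25 nearest genes, of which 20 were below 0. GLUL stood -0.45 from the median of chromosome 1 and -0.57 from that of its nearest genes, 15 of which were above 0. ASNS, read from the fit without an expression minimum, stood 0.33 above the chromosome 7 median of the tested genes, so the value and the median come from different fits.

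**Figure D3:**
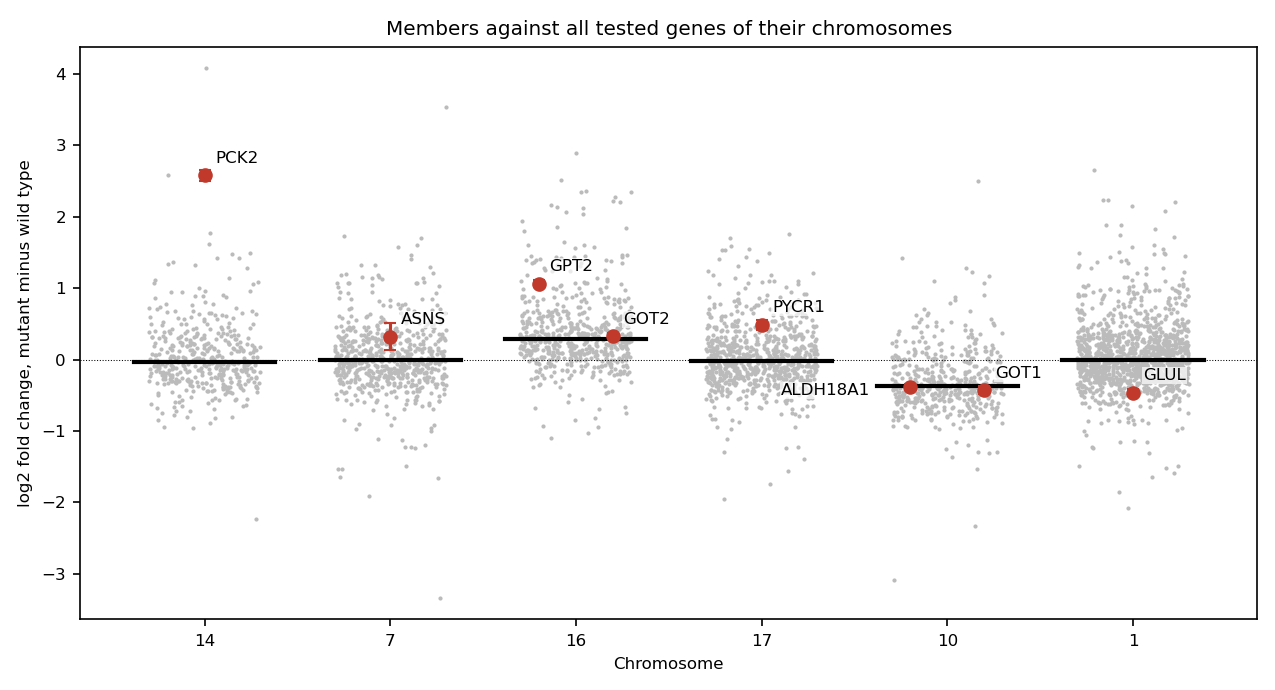
Log2 fold change (mutant minus wild type) of each of the 8 genes (red, with SE) and of all tested genes of the same chromosomes (grey), with each chromosome's median (black line). ASNS is drawn from the fit without an expression minimum. ALDH18A1 and GOT1 lie at the chromosome 10 median of -0.36 and GOT2 at the chromosome 16 median of 0.29, whereas PCK2, GPT2, PYCR1 and GLUL lie off the medians of theirs.

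Genes whose profile over the 6 libraries was most like that of a member were found by the Euclidean distance between log2 CPM values centred per gene, as a description. This distance includes the difference between genotypes by which the members were chosen. Neighbours therefore have log2 fold changes near that of their member, such as 0.48 for PPM1H beside 0.49 for PYCR1. Whether neighbours share any control was not tested. Nearest to PCK2 were DDIT4 (0.337), an inhibitor of mTOR signalling, H2BC21 (0.368), a histone gene, and CDH1 (0.382), the epithelial cadherin. Nearest to GPT2 were FAM210B (0.0696), MTHFD2 (0.104), of mitochondrial folate metabolism, and SNAI2 (0.114), a transcription factor. PYCR1 had PPM1H (0.0422), LINC01560 (0.0620) and PLXNB2 (0.0735) beside it, and GOT2 had POLI (0.0380), BRD7 (0.0391), also on chromosome 16, and NAP1L1 (0.0492). For the genes that were lower in the mutant, the nearest were MTA2 (0.0419), KIFC1 (0.0465) and TCP1 (0.0480) to ALDH18A1. ACADSB (0.0437), SF3A1 (0.0538) and TTC4 (0.0574) were nearest to GLUL, and MREG (0.0722), PDZD11 (0.0753) and RADX (0.0872) to GOT1. No member was among the 3 nearest genes of another, from which nothing is read, since any tested gene with a symbol could take those places.

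The members shared deposited pathway terms, which follows from their grouping as enzymes of these pathways. All 8 carried the broad term for metabolic pathways, as did 1167 other tested genes. It was the only such term that PCK2 shared with another member. The other 7 carried the term for biosynthesis of amino acids. The alanine, aspartate and glutamate term held 5 of them, and among its 33 other tested genes 15 rose and 7 fell (median 0.14). Arginine and proline metabolism held 4, and of its 26 other tested genes 9 rose and 7 fell (median 0.00). The share of called genes among those others is to be read against 58.0% of all tested genes. By the deposited location terms, 6 of the 8 products, all but those of ASNS and GOT1, carried a mitochondrial one.

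Other enzymes and carriers of the same pathways differed about as often as tested genes in general, and in both directions. Of 18 asparagine and aspartate genes, 12 were tested: 4 rose, 3 fell and 5 did not pass, and the median log2 fold change was 0.01 against 0.00 for all tested genes. ASS1, which joins citrulline to aspartate and has many pseudogene copies that can share reads, had 15.48, 17.22 and 14.30 FPKM in mutant libraries, against 9.09, 7.72 and 7.19 FPKM in wild-type libraries, a rise of 0.94 (SE 0.09, edgeR adjusted p = 7.77e-08). AGA, a lysosomal enzyme of glycoprotein breakdown, rose by 0.89 (SE 0.11), the mitochondrial aspartate-glutamate carrier SLC25A12 by 0.28, and NIT2, an omega-amidase, by 0.28. The other aspartate-glutamate carrier, SLC25A13, fell to 32.3 ± 1.10 FPKM in the mutant, against 42.1 ± 2.55 FPKM in the wild type (SD, n = 3 each; log2 fold change -0.41, edgeR adjusted p = 1.34e-06). Of the genes of purine synthesis in the list, ADSL fell by 0.38 and ADSS2 by 0.14. ADSS1, which encodes the other adenylosuccinate synthase and did not reach the expression minimum, had 1.24, 1.36 and 1.30 FPKM in mutant libraries, against 0.67, 0.51 and 0.70 FPKM in wild-type libraries, and was named after its values were seen. ADSL lies on chromosome 22, where its 25 nearest genes had a median of -0.22, and the ADSS2 call was lost in 8 of 15 alternatives, leaving out mutant replicate 2, mutant replicate 3 or wild-type replicate 2 among them, with values from -0.18 to -0.09. ASNSD1, named for its asparagine synthetase domain, did not pass (log2 fold change 0.00, SE 0.05, edgeR adjusted p = 0.972). The malate dehydrogenases of the shuttle, chosen after their values were seen, did not pass either: MDH1 had 0.02 and MDH2 -0.02.

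Of 16 proline and ornithine genes, 10 were tested: 2 rose, 4 fell and 4 did not pass (median -0.11). SRM, the spermidine synthase, fell to 64.4 ± 3.45 FPKM in the mutant, against 95.8 ± 2.73 FPKM in the wild type (SD, n = 3 each; log2 fold change -0.60, edgeR adjusted p = 6.96e-09). ODC1, the ornithine decarboxylase, fell by 0.53 (SE 0.04, edgeR adjusted p = 2.03e-09) to 94.3 ± 1.20 FPKM in the mutant, against 133 ± 2.08 FPKM in the wild type (SD, n = 3 each). PEPD, the dipeptidase that frees proline, fell by 0.43. OAT, the ornithine aminotransferase, fell by 0.37, at the median of chromosome 10 (-0.36), on which it lies. The mitochondrial ornithine carrier SLC25A15 rose by 0.29 and the mitochondrial arginase ARG2 by 0.25, a call lost without an expression minimum. The proline-degrading enzyme gene PRODH stayed at a mean of 0.0133 FPKM in the mutant and 0.00333 FPKM in the wild type and was not tested.

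Of 30 glutamate and glutamine genes, 22 were tested: 9 rose, 4 fell and 9 did not pass (median 0.09). PSAT1, the glutamate-using aminotransferase of serine synthesis, averaged 269 ± 10.00 FPKM in the mutant and 129 ± 4.54 FPKM in the wild type (SD, n = 3 each; log2 fold change 1.03, edgeR adjusted p = 2.69e-12). BCAT1, the cytosolic branched-chain aminotransferase, rose by 0.97 (SE 0.05, edgeR adjusted p = 1.58e-11) to 25.3 ± 1.01 FPKM in the mutant, against 12.7 ± 0.584 FPKM in the wild type (SD, n = 3 each). GFPT2, which spends glutamine on hexosamine, rose by 0.79, ALDH5A1, of GABA breakdown, by 0.32, and ABAT, the GABA aminotransferase, by 1.03 on chromosome 16. GLUD1, the glutamate dehydrogenase, fell by 0.35 on chromosome 10, though its near-identical copy GLUD2 may share reads with it. NADSYN1, the glutamine-using NAD synthetase, fell by 0.32, the mitochondrial glutamate carrier SLC25A22 by 0.27 and PFAS by 0.16, the last a call lost in 4 of 15 alternatives.

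Of 20 genes of phosphoenolpyruvate, pyruvate and oxaloacetate, 14 were tested: 2 rose, 6 fell and 6 did not pass (median -0.07), so the neighbours of PCK2 in the pathway showed no rise of its size. PC, the pyruvate carboxylase that makes the oxaloacetate PCK2 uses, averaged 3.74 ± 0.154 FPKM in the mutant and 4.84 ± 0.215 FPKM in the wild type (SD, n = 3 each; log2 fold change -0.41, edgeR adjusted p = 8.66e-05). PKM, the pyruvate kinase that uses phosphoenolpyruvate, fell by 0.21, the pyruvate carrier subunit MPC1 by 0.27 and the lactate dehydrogenase subunit LDHA by 0.25. LDHB rose by 0.16 and G6PC3, a glucose-6-phosphatase, by 0.40.

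Of the 12 regulators of the amino acid response, all were tested: 8 rose, 1 fell and 3 did not pass (median 0.21), which is 75.0% called against 58.0% of all tested genes. The list was chosen with earlier results of these data known, so nothing is read from that share. Without an expression minimum 7 of the 12 were called, 6 of them higher, where 8966 of 32852 genes were called. ATF4 had 354.57, 389.69 and 381.57 FPKM in mutant libraries, against 227.10, 212.82 and 221.88 FPKM in wild-type libraries (log2 fold change 0.73, SE 0.04, edgeR adjusted p = 2.22e-10), while its 25 nearest genes on chromosome 22 had a median of -0.05. Its partners CEBPG and CEBPB rose by 0.68 and 0.79, ATF3 by 1.60 and MYC by 1.02. EIF2AK4, the uncharged-tRNA sensor, rose by 0.15 (SE 0.05, edgeR adjusted p = 0.0154), a call lost without wild-type replicate 2 and without an expression minimum (0.12 to 0.20 over the alternatives). EIF2AK1, the haem-regulated kinase, rose by 0.19. EIF2AK2, named after its values were seen, rose by 0.14, a call lost in 4 of 15 alternatives. ATF5 fell by 0.72 (SE 0.15). The 3 that did not pass, named after their values were seen, were DDIT3 (-0.12), TRIB3 (0.23) and EIF2AK3 (0.08). Their 25 nearest tested genes had medians of 0.42 for DDIT3, -0.55 for TRIB3 and -0.02 for EIF2AK3.

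**Figure D4:**
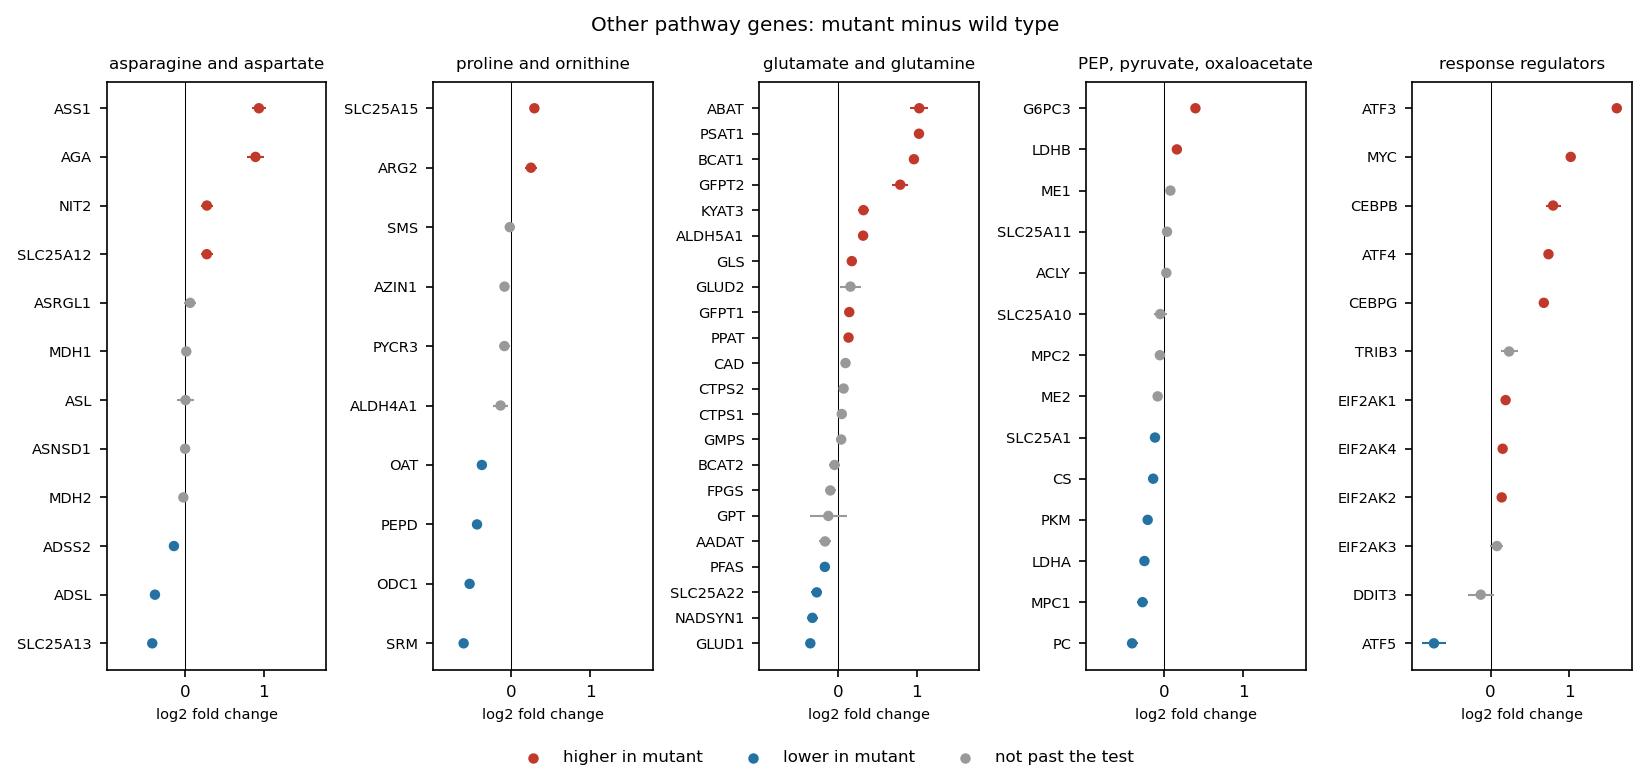
Log2 fold change (mutant minus wild type) with SE of the tested genes of the 5 lists, red where higher and blue where lower in the mutant at an adjusted p below 0.05, grey where not past the test. The enzyme lists spread to both sides of 0. Of 12 regulators, 8 are higher and 1 is lower in the mutant, where 58.0% of all tested genes were called. The lists were chosen with earlier results of these data known, so nothing is read from these counts.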

How the data were processed

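The tools cutadapt, HISAT2 (2.0.1) and HTSeq and the build GRCh38 are named, per the submitters' processing notes, for the authors' pipeline. Its annotation release, strandedness and handling of ambiguous reads are not stated. Per the file headers, the deposited table holds a raw count and an FPKM for each gene and library. The deposited FPKM matched counts scaled by exonic length and library total within 0.011 for 100% of values. Counts of the 12550 genes that reached 1 FPKM on average were scaled by TMM and tested with the quasi-likelihood test of edgeR 4.0.16, two-sided, with Benjamini-Hochberg adjustment over all of them. The script was tested on simulated data. Fold changes are mutant over wild type. ASNS was read from the same fit without the minimum. The alternatives used DESeq2 1.42.0, limma 3.58.1 and R 4.3.3, among other settings. The members and lists were chosen with earlier results of these data known. 1 gene is not reported here and was left out of its list. Named were the members, relatives, ATF4, EIF2AK4, up to 6 list genes with the smallest adjusted p, up to 4 against the majority, and the 3 nearest profiles. The submitters call the libraries biological replicates without saying whether they were separate cultures, so p-values measure the spread between these libraries. No libraries of a group were duplicates (chi-square per degree of freedom at least 2.49).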

Additional observations from a re-analysis of the deposited data

How the results depend on the processing

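No member changed direction in any of the 15 alternatives run, ASNS and the others included, though ASNS had no value in the fit restricted to genes that averaged 5 FPKM or more. The count of called genes, 7284 of 12550, was 4597 of 7304 tested with that stricter minimum, where fewer genes were tested, and 6437 to 7407 with a library left out. With replicate numbers as a block, 7069 genes were called. Same-numbered libraries did not deviate together (correlations of -0.0363 to -0.00165 over genes), so no pairing by number was seen. With 3 libraries a group, a weak pairing could be missed. PCK2 was 2.25 with limma on log2(FPKM + 1) and 2.42 with a pseudocount of 0.5. GPT2 was 1.11 and GOT2 0.37 with the minimum of 5. ALDH18A1 was -0.34 with library totals, -0.42 with no expression minimum, -0.33 with the minimum of 5, and -0.34, -0.35 and -0.35 with limma and pseudocounts of 1, 0.1 and 0.5. The other tested members shifted the same way as ALDH18A1 with library totals and with no expression minimum. GLUL was -0.43 and -0.50 in these, and GOT2 was 0.36 and 0.29. The median of all tested genes was 0.04 with library totals, against 0.00 in the main fit. The TMM factors of the main fit were 1.008 to 1.017 in mutant and 0.980 to 0.991 in wild-type libraries. Library totals leave these factors out. The cause of the other shifts was not tested. Shares computed from counts without length scaling differ by construction: 97.7% in the mutant and 95.0% in the wild type for GPT2, 14.5% in the mutant and 22.2% in the wild type for GOT1, and 85.5% in the mutant and 77.8% in the wild type for GOT2. With a library left out, PCK2 ran from 2.51 to 2.65, ASNS from 0.17 to 0.43, GPT2 from 1.03 to 1.09, PYCR1 from 0.41 to 0.60, ALDH18A1 from -0.39 to -0.36, GLUL from -0.51 to -0.42, GOT1 from -0.47 to -0.37 and GOT2 from 0.29 to 0.35. Of 43 called list genes, 35 kept the call in every one of the 15 alternatives that gave a value and none changed sign, and the other 8 lost it in at least 1. ASNS had 59 to 95 counts a library, and what sets that number was not tested.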
